A study of Mus musculus with 10 samples.

Results

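A set of 441 autosomal regions was open in both ATAC-seq libraries of SoxC double knockout mouse cochlea and overlapped no peak in any of 3 wildtype lists. ATAC-seq marks open chromatin by the DNA that a transposase can reach. The regions were chosen from these measured peaks. Overlapping peaks of a list were merged and ranked by their −log10 p, with rank 1 as the strongest. The 50000 strongest peaks of each of 5 libraries were reduced to their summits with 250 bp to the left and right, and overlapping windows were joined over libraries into 76102 regions. A region was kept if it had a window in both knockout libraries and shared no base with any peak, however weak, of the full wildtype lists. That left 441 of the 6059 regions (7.96% of all) with windows in both knockout libraries and in no wildtype library, which is 0.579% of the 76102 regions, and 0.998% of the 44173 regions with a window in both knockout libraries. Since these peaks defined the set, the counts are a description and carry no test. The count depended on single libraries. It was 1568 without wildtype replicate 1, 594 without wildtype replicate 2 and 574 without wildtype replicate 3, and it was 793 without knockout replicate 1 and 970 without knockout replicate 2.

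The tissue was mouse cochlea at E13.5, used unsorted. The labels differ on what it held, since the titles of the 5 ATAC-seq libraries name the whole organ, whereas their cell type label and extraction protocol name duct epithelium, freed with dispase and collagenase. The knockout group held 2 ATAC-seq libraries of conditional SoxC double knockout embryos, and the wildtype group held 3. The labels of these libraries name neither the deleted genes nor the Cre driver, and only the strain of the knockout single-cell library of the series is given, as Pax2cre with floxed SoxC alleles. Whether a library was made from 1 embryo or from a pool is not stated in the labels. Binding of Sox4 was mapped by CUT&RUN, which cuts DNA beside an antibody-bound protein, in 3 replicates of GFP-positive progenitors sorted from p27kip1-GFP embryos of the same day, with a wildtype genotype label.

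SoxC proteins are transcription factors with an HMG box, which binds the minor groove of short AT-rich DNA. At this stage the precursors of the organ of Corti, which later form hair cells and supporting cells, leave the cell cycle. Chromatin at the starts of genes that nearly every cell uses is usually open in all tissues, whereas distal elements are open in fewer cell types.

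Of the 10 strongest regions of the set, 6 lay at ends of protein-coding genes, and over the whole set 14 genes had a RefSeq promoter window (250 bases before to 50 after the start, build GRCm38.p6, the same coordinates as mm10) that a region overlapped. The promoters below belong to 7 of these genes. They were picked for the strongest peak of all (Hjurp), for Sox4 windows in the wildtype progenitors (Taco1, H4f16, Cwc22) and for a SOX form near the start (Ttyh3, Bbs2, H4f16, Cwc22, Lfng). SOX forms are thus common among them by choice. Brat1 also had Sox4 windows, of ranks 84 and 224 in replicates 1 and 2. Its promoter windows held neither SOX form and are not shown. Each promoter shown runs 5′ to 3′ on the strand of its gene. Capitals mark 2 short forms that SOX proteins are known to bind, AACAAT and ACAAAG, searched on both strands, so that ATTGTT and CTTTGT are the same forms on the other strand. The 2 forms cannot cover the same 6 bases.
Hjurp promoter: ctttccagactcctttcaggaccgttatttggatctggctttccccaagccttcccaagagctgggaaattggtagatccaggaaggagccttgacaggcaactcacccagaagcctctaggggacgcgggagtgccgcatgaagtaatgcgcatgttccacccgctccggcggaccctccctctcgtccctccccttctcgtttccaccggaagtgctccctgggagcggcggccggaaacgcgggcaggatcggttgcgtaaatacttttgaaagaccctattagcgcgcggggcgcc
Taco1 promoter: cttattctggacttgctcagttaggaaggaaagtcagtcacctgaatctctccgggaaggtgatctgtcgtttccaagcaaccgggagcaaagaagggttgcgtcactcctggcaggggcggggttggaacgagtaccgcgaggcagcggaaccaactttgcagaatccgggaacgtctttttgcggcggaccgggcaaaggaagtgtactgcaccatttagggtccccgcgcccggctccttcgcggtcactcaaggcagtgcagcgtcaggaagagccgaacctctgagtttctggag
Ttyh3 promoter: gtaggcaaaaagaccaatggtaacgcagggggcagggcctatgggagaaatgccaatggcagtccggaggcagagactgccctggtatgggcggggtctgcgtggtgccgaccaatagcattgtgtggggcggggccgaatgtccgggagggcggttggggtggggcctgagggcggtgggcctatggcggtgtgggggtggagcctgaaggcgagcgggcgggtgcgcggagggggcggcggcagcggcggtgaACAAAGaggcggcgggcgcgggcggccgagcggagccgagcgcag
Bbs2 promoter: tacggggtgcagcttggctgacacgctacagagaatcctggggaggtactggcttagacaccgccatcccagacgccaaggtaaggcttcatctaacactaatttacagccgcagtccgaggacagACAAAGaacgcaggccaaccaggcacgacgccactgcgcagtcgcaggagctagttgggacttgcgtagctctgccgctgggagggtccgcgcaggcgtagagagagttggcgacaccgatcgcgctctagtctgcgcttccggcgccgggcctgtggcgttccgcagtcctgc
H4f16 promoter: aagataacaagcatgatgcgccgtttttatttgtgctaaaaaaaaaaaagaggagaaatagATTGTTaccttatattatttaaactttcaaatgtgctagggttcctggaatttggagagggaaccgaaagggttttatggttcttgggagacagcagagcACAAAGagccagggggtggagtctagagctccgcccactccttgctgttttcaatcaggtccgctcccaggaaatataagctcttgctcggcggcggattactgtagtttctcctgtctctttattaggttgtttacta
Cwc22 promoter: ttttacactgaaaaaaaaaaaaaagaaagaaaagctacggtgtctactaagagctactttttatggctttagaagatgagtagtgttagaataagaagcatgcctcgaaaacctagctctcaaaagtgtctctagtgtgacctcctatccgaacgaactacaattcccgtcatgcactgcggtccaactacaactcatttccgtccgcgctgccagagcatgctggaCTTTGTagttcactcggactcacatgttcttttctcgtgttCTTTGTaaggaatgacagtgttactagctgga
Lfng promoter: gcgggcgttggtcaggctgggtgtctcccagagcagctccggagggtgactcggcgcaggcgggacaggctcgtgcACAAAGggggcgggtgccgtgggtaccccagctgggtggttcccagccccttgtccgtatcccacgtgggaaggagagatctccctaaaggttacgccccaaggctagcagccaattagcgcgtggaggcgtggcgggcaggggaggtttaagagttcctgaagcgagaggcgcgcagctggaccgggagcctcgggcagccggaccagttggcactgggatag

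The windows stood at chr1:88277530-88277829 for Hjurp, chr11:106065841-106066140 for Taco1, chr5:140648982-140649281 for Ttyh3, chr8:94098460-94098759 for Bbs2, chr6:136804382-136804681 for H4f16, chr2:77946307-77946606 for Cwc22 and chr5:140607091-140607390 for Lfng. Taco1 and Lfng lie on the plus strand and the other 5 on the minus strand. The form ACAAAG stood in 5 of the 15 windows that the regions overlapped (33.3%, exact 95% interval 11.8% to 61.6%), against 12.0% of 9592 windows at shared regions and 16.6% of all 20085 autosomal windows. At other knockout-only regions, which had a weaker wildtype peak but no wildtype window, it was 12.8% of 125 windows. The 5 were Ttyh3, Bbs2, H4f16, Cwc22 and Lfng. AACAAT stood in 1 of 15 (6.67%), that of H4f16, and in 8.78% of all windows. The GC box GGGCGG stood in 10 of 15 (66.7%), against 70.5% at shared regions and 47.0% of all windows. CCAAT stood in 9 of 15 (60.0%) and 40.6% at shared regions. The core motif of NRF1, a factor of many housekeeping promoters, stood in 0 of 15, with an exact upper limit of 21.8%. It stood in 16.0% of windows at shared regions and 8.83% of all windows. At other knockout-only regions the GC box stood in 44.0% of windows, CCAAT in 30.4% and the NRF1 core in 4.0%. The median GC content was 53.7% for the 15 windows, against 62.3% at shared regions, 57.3% at other knockout-only regions and 57.0% for all windows. With 15 windows the intervals are wide. Such matches are letters in a window and not binding sites. The sequence of the regions away from promoters was not used here.

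The strongest region lay over the start of Hjurp (chr1:88277357-88277868), whose product loads the centromeric histone CENP-A onto chromosomes. Its peak ranked 1 in both knockout libraries. Its −log10 p was 1826.2 in knockout replicate 1 and 1988.2 in knockout replicate 2, and the fold enrichment over local background was 20.1 and 20.2. The nearest peak of any wildtype list lay 40751 bp away, and the region stood in a stretch of 112629 bp that held 9 and 18 merged peaks of knockout replicates 1 and 2 and none of the 3 wildtype replicates. A region over the start of Taco1 (chr11:106065738-106066242), a translational activator of mitochondrial cytochrome c oxidase, ranked 793 and 2752 with an enrichment of 22.8 in both knockout libraries, and its nearest wildtype peak was 10156 bp away. One at Crebzf (chr7:90442500-90443006), which encodes a bZIP protein, ranked 2356 and 1468 in knockout replicates 1 and 2. There a wildtype replicate 1 peak of rank 66741 began 430 bp away.

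Other strong regions also held starts of genes with general cell functions. At Bbs2 (chr8:94098218-94098721), which encodes a subunit of the BBSome that carries cargo into cilia, the ranks were 3601 and 3883 in knockout replicates 1 and 2 and the enrichment 14.6 and 15.6. At Brat1 (chr5:140704572-140705100), a partner of DNA damage kinases, the ranks were 5179 and 3085 and the enrichment 9.53 and 12.7. At Ttyh3 (chr5:140648963-140649468), an anion channel gene of the tweety family, they were 3615 and 3660, and 13.6 and 16.2. None of these 3 regions overlapped a wildtype peak, and the nearest ones lay 13214, 2099 and 12695 bp away. The region beside an end of Sdhc, which encodes a succinate dehydrogenase subunit (chr1:171129221-171129750), ranked 6039 and 4761. The region at the histone H4 gene H4f16 (chr6:136804199-136804700) ranked 3367 and 6503, and 3283 bp from it stood a strong wildtype peak, of rank 1941 and enrichment 15.1 in wildtype replicate 1.

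Among the 10 strongest regions, 4 lay away from gene ends. The region 1418 bp from Gm40369, a predicted gene (chr6:47650977-47651482), ranked 2 in knockout replicate 1 and 1072 in knockout replicate 2. The one 19215 bp from Cdk20, a kinase linked to cilia (chr13:64412592-64413103), ranked 5251 and 4287 with enrichments of 22.0 and 23.3. The one 7694 bp from Sfi1, a centrin-binding gene (chr11:3123640-3124155), ranked 5750 and 4455, and its nearest wildtype peak lay 78043 bp away. The region inside Cdh22, a cadherin gene (chr2:165116927-165117429), ranked 3806 and 5845. Further down, a region in Arhgap40 (chr2:158546698-158547214) ranked 10909 and 10540 and lay 69 bp from a wildtype replicate 1 peak of rank 157449. The region 912 bp from an end of Metrn, a secreted neurotrophic factor gene (chr17:25795609-25796132), ranked 13531 and 10877, with a wildtype replicate 3 peak of rank 16642 at 711 bp. Regions inside Depdc5, a gene of the GATOR complex that restrains mTORC1 (chr5:32979172-32979700), and inside Tspan18, a tetraspanin gene (chr2:93265744-93266253), ranked 16626 and 19784, and 16588 and 19063. They lay 3824 and 4259 bp from wildtype peaks.

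Genes with near-identical copies, such as H4f16, Sfi1, Cwc22 and the zinc finger gene Zfp978, are uncertain, since how the authors treated reads with several matches is not given in the sources used here. Some other regions stood in long stretches without wildtype peaks. Near 4930467E23Rik the stretch was 213806 bp, with 1 merged peak in each knockout list. Near Gm40369 it was 136334 bp, with 1 and 5 peaks in knockout replicates 1 and 2. Near Gm9595 it was 431374 bp, with 3 and 3. Whether reads with several matches affect these regions was not tested.

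The set was mostly weak within the knockout lists. Its median weaker rank, the larger rank number of the 2 knockout libraries, was 42757 out of 50000. Of the 441 regions, 276 had a weaker rank above 40000, 105 between 30001 and 40000, 29 between 20001 and 30000 and 31 up to 20000. As a share of the regions open in both knockout libraries, the set made up 0.178% (31 of 17424) up to rank 20000 and 1.53% (410 of 26749) beyond it. It was 0.151% (1 of 662) among the 1000 strongest ranks, 0.192% (17 of 8845) from 10001 to 20000, 0.321% (29 of 9039) from 20001 to 30000, 1.16% (105 of 9047) from 30001 to 40000 and 3.19% (276 of 8663) in the last 10000. The share was thus nearly level over the first 20000 ranks and highest in the last 10000. The plot of shares by rank shows this beside the share at gene ends.

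**Figure D1:**
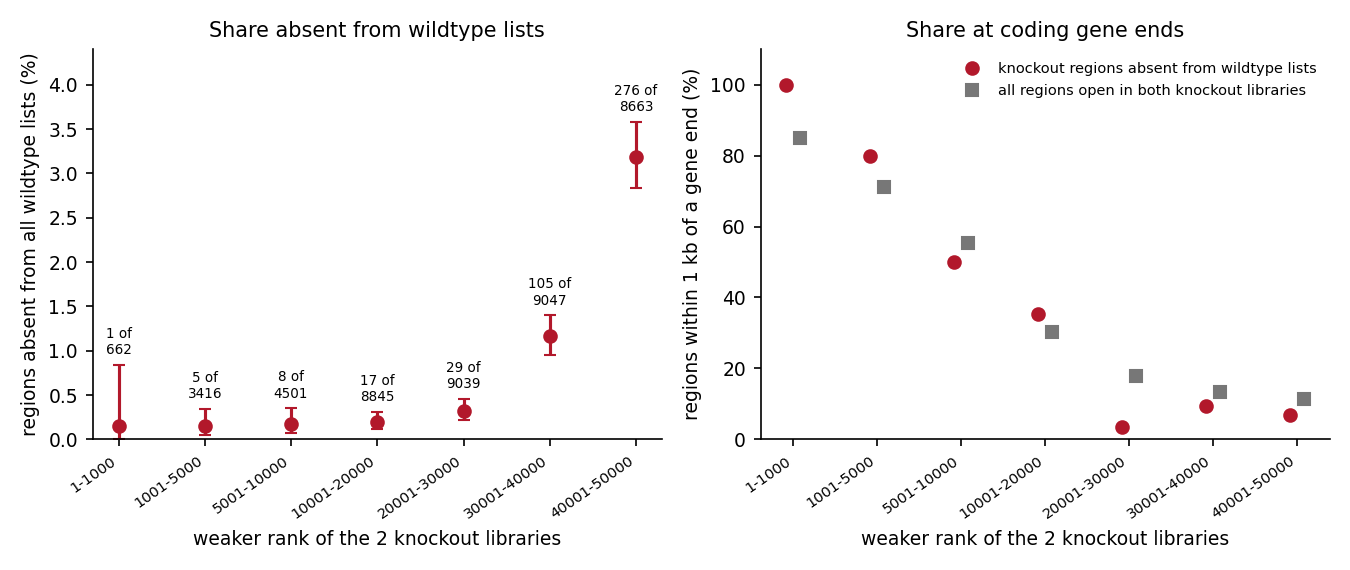
Regions open in both knockout libraries, by the weaker of their 2 knockout ranks (x axis, rank 1 is strongest). Left: percent absent from the 3 wildtype lists, with exact 95% binomial bars and counts, which runs from 0.151% in the first bin to 3.19% in the last. Right: percent within 1 kb of a coding gene end for these absent regions (circles) and for all regions open in both knockout libraries (squares). The squares fall from bin to bin, while the circles stand at 3.45%, 9.52% and 6.88% in the last 3 bins.

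At the limit itself the neighbours were alike in strength. Just inside lay, among others, the regions nearest to Stx8, Mrps23, Phactr4 and Wiz, with weaker ranks of 49934, 49937, 49955 and 49975. Just outside, and also without a wildtype peak, lay those nearest to Mcf2l, Wnt11, Ksr1, Sik1 and Med13, with 50013, 50045, 50062, 50115 and 50128. The −log10 p was 104.3 at Phactr4 in knockout replicate 1, the library that set its weaker rank, and 104.0 at Mcf2l.

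A coding gene began or ended within 1 kb of 10.2% of the set (45 of 441, with 7.54% to 13.4% as exact 95% interval). Over all 76102 regions the share was 19.9%. It was 9.56% of the 5618 other knockout-only regions, which had no wildtype window but a weaker wildtype peak. Of 28321 regions shared by all 5 libraries it was 36.1%, and of regions open in both knockout libraries 27.2%. Of the mirror set, 165 regions open in all 3 wildtype libraries and absent from both full knockout lists (0.217% of all regions), 4 lay at a gene end (2.42%, 0.664% to 6.09%). The shares over the set hid a split by strength. Up to a weaker rank of 20000, a limit chosen after the ranks were seen, 15 of 31 regions lay at a gene end (48.4%, 30.2% to 66.9%), beside 46.9% of all regions open in both knockout libraries at those ranks, 49.4% of shared regions and 16.0% of 119 other knockout-only regions. Beyond that rank it was 7.32% (30 of 410, 4.99% to 10.3%), beside 14.3% of all regions open in both knockout libraries and 9.42% of 5499 other knockout-only regions. The 31 strong regions thus had about the gene-end share of shared chromatin. The interval of the 410 weaker ones ended below the 18.6% of shared regions at those ranks but held the 9.42% of other knockout-only regions. A listed gene start, as opposed to either end, lay within 1 kb of 16 of the 45 gene-end regions and inside 13 regions of the set.

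Inside coding genes lay 62.1% of the set (57.4% to 66.7%), near the 62.7% of regions open in both knockout libraries and the 58.6% of all regions. It was 55.0% of other knockout-only regions, 66.9% of shared regions and 37.0% of the mirror set of 165. Over 100 kb from every coding gene lay 21 regions (4.76%, 2.97% to 7.19%). The share was 6.23% for other knockout-only regions, 7.34% for regions open in both knockout libraries and 7.63% for shared regions. It was 11.8% for all regions and 33.9% for the mirror set. The mean number of coding genes within 500 kb was 17.3 for the set and 12.0 for all regions. It was 15.8 for other knockout-only regions, 14.1 for regions open in both knockout libraries, 13.6 for shared regions and 5.47 for the mirror set. Up to a weaker rank of 20000 the set had 15.3, against 15.9 for shared regions and 18.2 for other knockout-only regions. Beyond that rank the set had 17.5, against 10.5 and 15.8. By chromosome, the share of regions open in both knockout libraries that belonged to the set was highest on chromosomes 19 (1.5%), 11 (1.45%) and 9 (1.44%) and lowest on chromosomes 10 (0.35%) and 3 (0.489%). The exact interval of chromosome 10, 0.151% to 0.688%, ended below that of chromosome 11, 1.06% to 1.94%. Both were picked for their low and high shares after all chromosomes were seen, so this gap carries no test. Regions of a chromosome share neighbourhoods and are not independent, and the intervals cover counting error only.

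Over all ranks, peaks of the set were lower and narrower than those of shared regions, while at equal rank they were narrower but not lower. The fold enrichment had a lowest value of 3.06, a median of 11.9 and a highest value of 30.0 in knockout replicate 1, and 2.71, 9.35 and 28.5 in knockout replicate 2. The medians of shared regions were 14.2 and 14.0. The merged peaks had a median width of 499 and 413 bp in knockout replicates 1 and 2, against 854 and 734 bp for shared regions and 532 and 439 bp for other knockout-only regions. At equal weaker ranks of 40001 to 50000 the median of the narrower peak was 354.5 bp for the set, 406 bp for other knockout-only regions and 618 bp for shared regions, while the median of the lower enrichment was 8.81, 8.93 and 8.80. At those ranks the set was thus narrower at about the same height. Up to rank 20000 the narrower peaks of the set had a median of 759 bp, against 603 bp for other knockout-only regions and 810 bp for shared regions, and the lower enrichment had a median of 17.4, against 16.2 and 15.4. Between these ranks the median lower enrichment of the set was also above that of shared regions, with 13.3 against 12.4 from 20001 to 30000 and 11.0 against 10.5 from 30001 to 40000. The summits of the 2 knockout libraries lay within 50 bp of each other in 99.1% of the set, with a median distance of 6 bp. Enrichment was higher in knockout replicate 1 than in knockout replicate 2 in 339 of 441 regions.

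**Figure D2:**
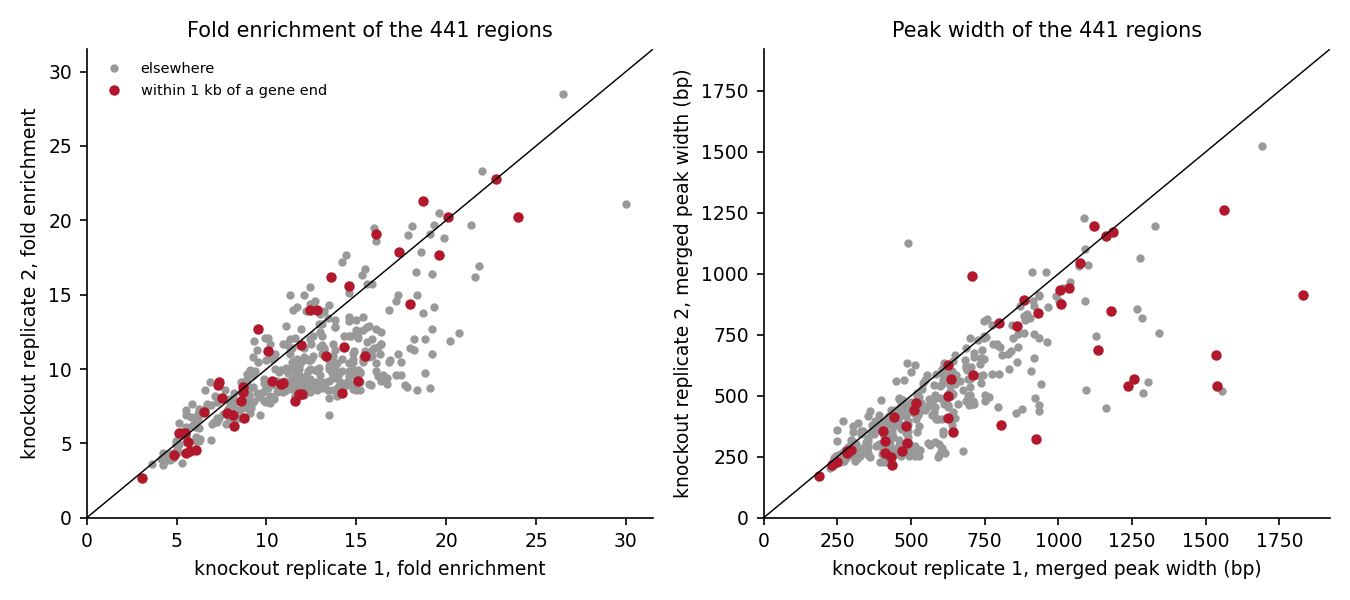
Fold enrichment (left) and merged peak width in bp (right) of the 441 regions in knockout replicate 1 (x axis) and knockout replicate 2 (y axis), with the line of equality. Dark points are the 45 regions within 1 kb of a gene end. Most points lie below the line, with higher enrichment in knockout replicate 1 in 339 regions, and no wildtype value exists because no wildtype peak overlaps.

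Taking the lower enrichment of the 2 knockout libraries, the highest value was at a region 30822 bp from 4930467E23Rik (chr8:19784426-19784942), with 26.5 and 28.5 in knockout replicates 1 and 2. The regions that follow leave out the 10 strongest named above. Of those left out, the lower enrichment was 22.8 at Taco1, 22.0 at Cdk20 and 20.1 at Hjurp. A region 35152 bp from Hunk, a kinase gene (chr16:90349627-90350131), had 30.0 and 21.1. One at an end of Fgl1, a fibrinogen-like gene (chr8:41217771-41218278), had 24.0 and 20.2, and one 57633 bp from Gm9595 (chr13:61803990-61804494) had 21.4 and 19.7. The region 3315 bp from 1600014C10Rik (chr7:38200884-38201385) had 19.3 and 19.7. The lowest value was at Sin3a, a corepressor gene (chr9:57071749-57072252), with 3.06 and 2.71. Next came regions inside Unc5c, a netrin receptor gene, with 4.25 and 3.57, Clk3, a splicing kinase gene (chr9:57762636-57763142), with 3.62 in both, Ptp4a1 with 5.31 and 3.67, and Col11a1 with 4.35 and 3.83. The widest narrower peaks were at Mfhas1 (1691 and 1525 bp in knockout replicates 1 and 2), Crebzf (1561 and 1261 bp), Tgfbrap1 (1327 and 1197 bp), Zfp978 (1185 and 1173 bp) and Csrnp1 (1162 and 1155 bp). Width and strength did not go together there, since Mfhas1, Tgfbrap1 and Csrnp1 had weaker ranks of 44239, 40359 and 42205.

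Absence from the wildtype lists did not mean that the surroundings were empty. The nearest wildtype peak lay 5 to 211067 bp from a region, with a median of 2825 bp, and 99 of 441 regions (22.4%) had one within 1 kb. The closest were at Dlgap4 (5 bp), Aunip (16 bp), Ehd4 (26 bp), Csrnp1 (31 bp) and Kif16b (48 bp), with ranks of 58430 to 148059 in their wildtype list. For the 31 strong regions the median distance was 4638 bp, with 3 within 1 kb, and for the 410 weaker ones 2610.5 bp, with 96 within 1 kb. Distances above 20 kb were found for 16 regions, 7 of the 31 strong ones (Hjurp, Mroh2a, Sfi1, 4930467E23Rik, Cwc22, Zfp978 and Gm9595) and 9 of the 410 others. The region at Cwc22, a spliceosome-associated gene, lay in a stretch of 167452 bp that held 9 merged peaks in each knockout list and none in the wildtype lists.

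**Figure D3:**
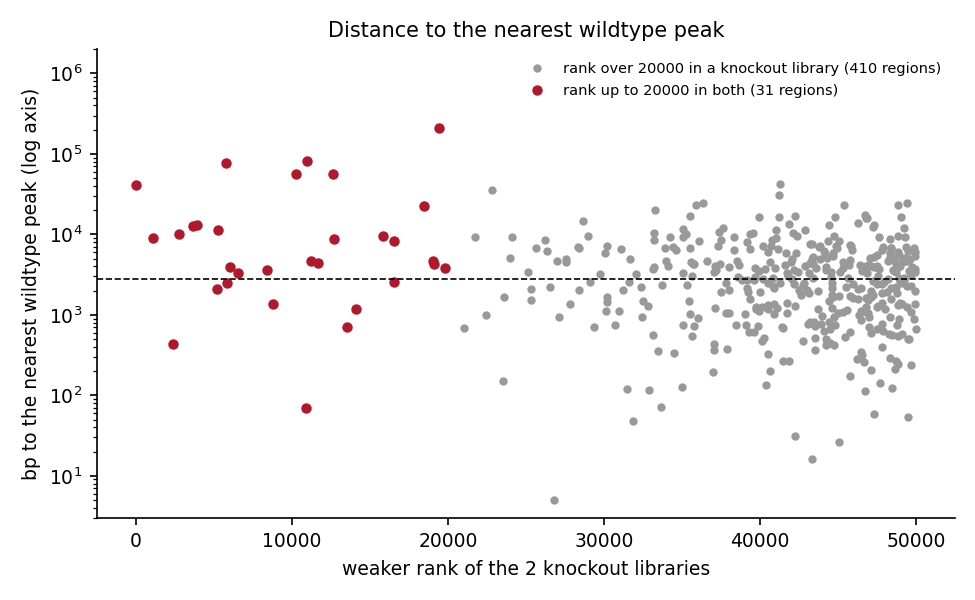
Distance from each of the 441 regions to the nearest peak of any wildtype list (y axis, bp, log axis) against the weaker knockout rank (x axis). Dark points are the 31 regions ranked up to 20000 in both knockout libraries, 7 of which lie over 20 kb from a wildtype peak, and the dashed line is the median of 2825 bp.

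The lists themselves differed between genotypes. The knockout lists held 299829 and 266873 peaks and the wildtype lists 196536, 166874 and 196345, and the −log10 p at rank 50000 was 104.1 and 50.5 in knockout replicates 1 and 2, against 19, 10.5 and 8.75 in wildtype replicates 1 to 3. Peaks carry running numbers, and 0.057% and 0.0756% of the numbers up to the highest had no row in the knockout lists used here, against 2.65%, 2.97% and 3.11% in the wildtype lists. Among the first 1000 numbers the missing ones were 5 and 5 in the knockout lists, against 19, 39 and 44 in the wildtype lists. The wildtype lists held no rows on chromosomes X and Y, which made up 2.06% and 2.09% of the knockout rows. Which positions the missing numbers had is unknown, and how many of them were peaks of chromosomes X and Y was not tested. Absence from these wildtype lists is therefore not the same as closed chromatin, and the part of missing rows in the set was not tested. In unsorted tissue a site that is open in more cells and a site that is more open in each cell cannot be told apart. Of 25 listed prosensory genes, 22 and 22 had a window at a gene end in the knockout libraries, against 24, 23 and 22 in wildtype replicates 1 to 3. Of 15 listed epithelial marker genes, 15 and 15 had a window at a gene end in the knockout libraries, against 13, 13 and 12 in wildtype. Of 19 mesenchymal genes it was 8 and 8, against 9, 9 and 10, of 19 spiral ganglion neuron genes 8 and 7, against 10, 9 and 9, of 14 glial and melanocyte genes 9 and 8, against 10, 9 and 9, and of 19 blood, endothelial and macrophage genes 2 and 1, against 3, 2 and 3. The part of such cells in the set was not tested.

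Most of the set was scattered. Only 31 of 441 regions (7.03%) had another within 50 kb, in 14 clusters, and the median distance to the next region of the set was 938112 bp. The number with another within 50 kb was 297 without wildtype replicate 1, 49 without wildtype replicate 2, 75 without knockout replicate 1 and 114 without knockout replicate 2. Of other knockout-only regions 42.5% had a neighbour of their own class within 50 kb, a share that also rises with the size of a class. A nearest coding gene within 100 kb was found for 420 regions, in all 401 genes, of which 383 had 1 region and 18 had 2 or more. Katnal1, a microtubule-severing gene, had 3, with weaker ranks of 8362 for a region 14581 bp away and of 30934 to 37834 for a pair that stood 13429 bp apart. Among those with 2 were Apold1, Cd244a, Cdc14b, Chst12, Cryaa, Cwc22, Fam76a, H2-DMb1, Iqsec1, Itga6, Lfng, Pdk1, Ttyh3, Wwp2, Zfp469 and Zfp978. At Apold1, an endothelial stress gene, the pair stood 841 bp apart, with weaker ranks of 11226 and 32059. Near Itga6, a laminin receptor subunit gene of epithelia, and Pdk1, a kinase gene of pyruvate metabolism, 3 regions spanned 67039 bp with a gap of up to 100 kb, over which the knockout lists held 11 and 9 merged peaks and the wildtype lists 2, 3 and 4.

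The largest group lay on chromosome 5 around Lfng, which encodes a fringe glycosyltransferase that modifies Notch receptors and is known in the cochlea from supporting cells and their precursors. Within chr5:140595041-140649468 stood 4 regions over 54428 bp. One lay 11785 bp before Lfng, one over the Lfng start (chr5:140607037-140607557), one 710 bp beyond the far end of Ttyh3 and one over the Ttyh3 start. With a gap of 100 kb the group grew to 7 regions over 168573 bp, with 2 regions near Chst12, a chondroitin sulfotransferase gene, and the one at Brat1. Over the Lfng start the peak ranked 9800 and 14115 in knockout replicates 1 and 2, with an enrichment of 8.69 and 8.78 and a −log10 p of 461.8 and 215.2. The nearest wildtype peak, 1195 bp away in replicate 2, had rank 75128 and an enrichment of 2.84. The locus was not empty in wildtype tissue. A peak about 4 kb beyond the start had an enrichment of 6.0, 6.31 and 4.52 and ranks of 30332, 20211 and 30389 in wildtype replicates 1 to 3, and at the same place the knockout lists held peaks of 2.81 and 3.74. At a strong peak between the starts of Ttyh3 and Brat1, the enrichment was 16.5 and 12.9 in knockout replicates 1 and 2, against 11.4, 8.42 and 4.82 in wildtype replicates 1 to 3. So at this locus some sites were listed in every library while the starts of Lfng, Ttyh3 and Brat1 were listed in the knockout libraries alone.

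**Figure D4:**
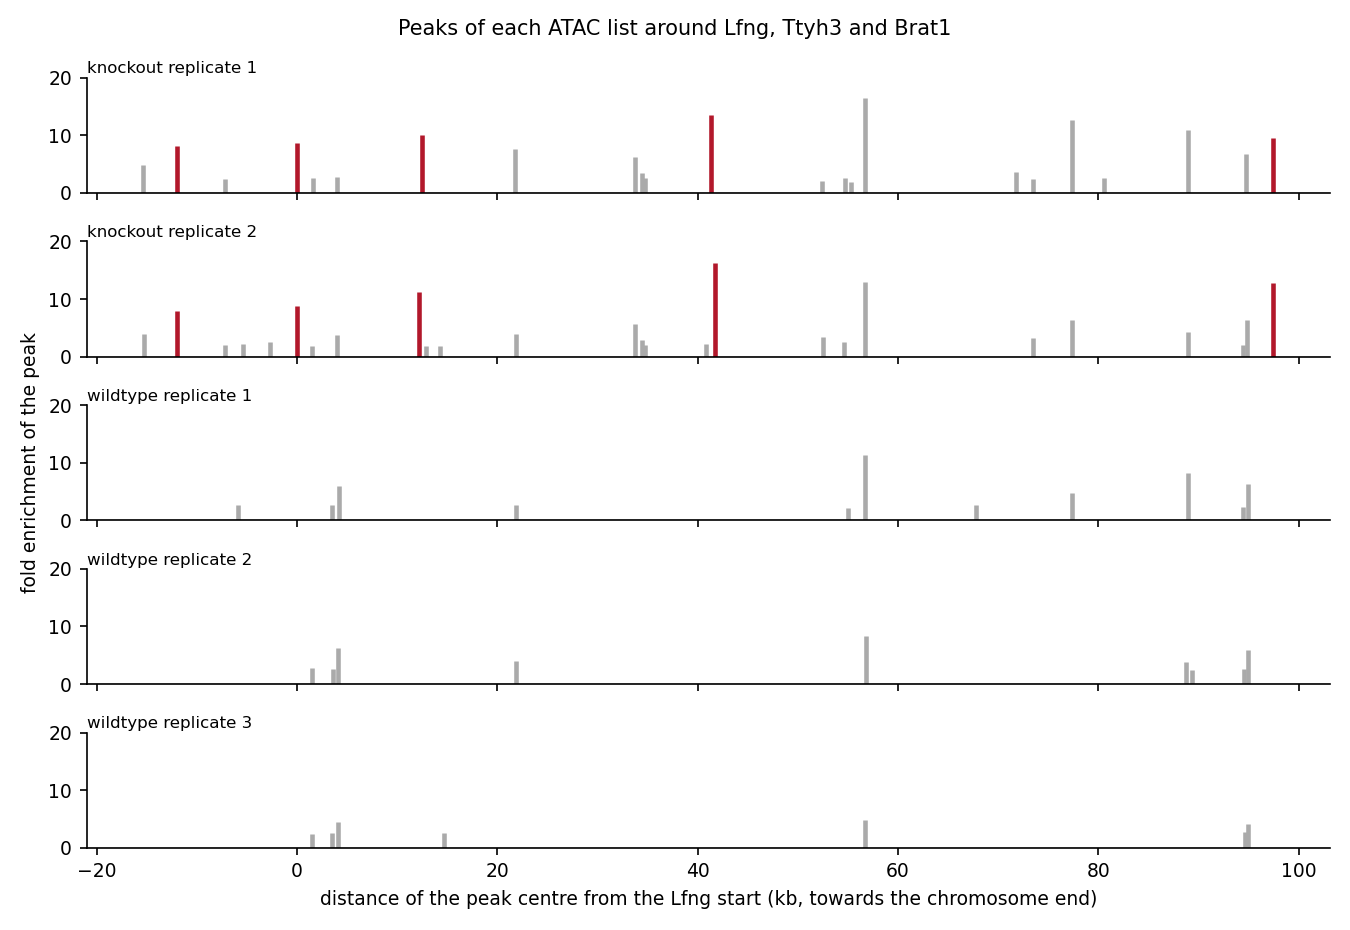
Peaks of each ATAC list around Lfng, Ttyh3 and Brat1, knockout replicates above wildtype replicates. The x axis is the distance of the peak centre from the Lfng start in kb, the height is the fold enrichment, and dark bars are peaks in regions of the set. The wildtype lists hold peaks about 4 kb beyond the start and between the starts of Ttyh3 and Brat1 but none at the Lfng start (enrichment 8.69 and 8.78 in knockout).

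The other cluster with at least 3 regions lay around Hjurp, over 39880 bp of chromosome 1. It joined the Hjurp start with a region at an end of Mroh2a (chr1:88262194-88262697, ranks 10590 and 12610) and one 4661 bp from Trpm8, the gene of a cold-sensing channel (chr1:88301558-88302073, ranks 40817 and 49026). Between its outer edges stood 5 and 6 merged peaks of knockout replicates 1 and 2 and 0 in each wildtype list. Pairs with no wildtype peak between their outer edges also stood at Cd244a, Pdk1, Chst12 and Apold1, which together with Hjurp made 5 of the 14 clusters.

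Sox4 windows in at least 2 replicates were about as frequent over the set as over all regions, and more frequent at its strong end. A window of the 20000 strongest Sox4 peaks overlapped 14, 8 and 14 of the 441 regions in replicates 1 to 3 (3.17%, 1.81% and 3.17%), and 7 regions had windows in at least 2 replicates (1.59%, exact 95% interval 0.64% to 3.24%). The share was 0.638% without wildtype ATAC replicate 1, 0.883% without knockout replicate 1 and 0.928% without knockout replicate 2. Over all 76102 regions, 1.49% had windows in at least 2 replicates, and 3.01%, 3.18% and 3.75% had one in replicates 1 to 3. In at least 2 replicates, other knockout-only regions had 7 of 5618 (0.125%), regions open in both knockout libraries 2.25% and shared regions 3.40%. Of the mirror set of 165, 0 had them, which allows a share of up to 1.82%, taken here and below as 3 counts of the total. All 7 lay among the 31 regions ranked up to 20000 (22.6%, 9.59% to 41.1%), where shared regions had 5.24% (843 of 16084) and other knockout-only regions 0 of 119, which allows up to 2.52%. Among the 410 weaker regions it was 0, which allows up to 0.732%, beside 0.972% of shared regions at those ranks. The interval of the strong regions began above the value of shared regions of like rank, but it covers counting error only. The limit of 20000 was chosen after the ranks were seen, so this gap carries no test. No control antibody was used here.

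**Figure D5:**
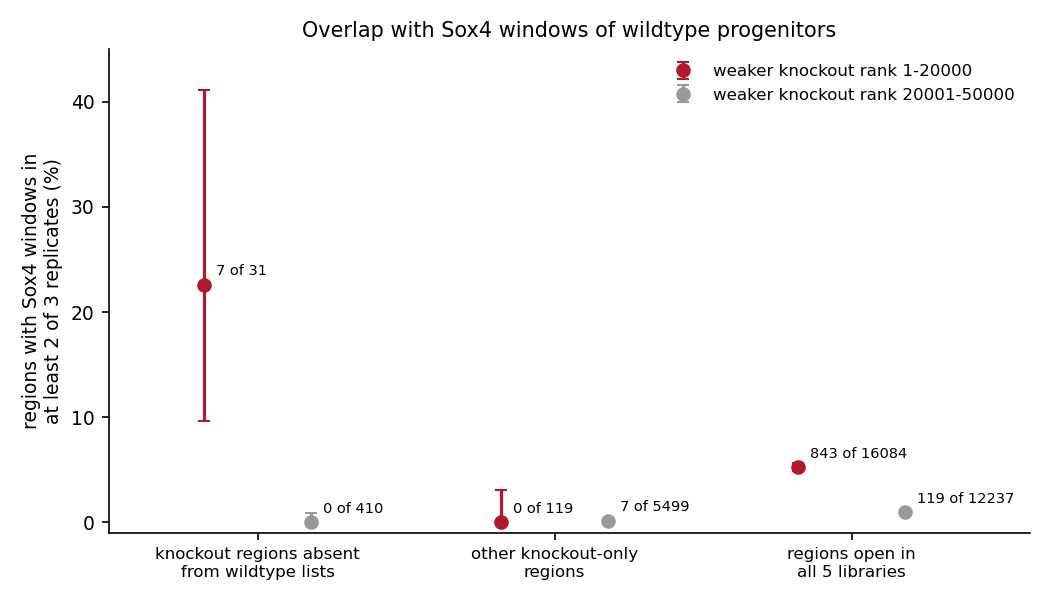
Percent of regions with Sox4 windows in at least 2 of 3 replicates of sorted wildtype progenitors, with exact 95% binomial bars, also at 0, and counts, by class (x axis) and by the weaker knockout rank (dark, up to 20000, and grey, beyond). The value is 22.6% for the 31 strong regions absent from the wildtype lists, against 5.24% for shared regions of like rank.

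The 7 regions were at or near Lars2, 4930467E23Rik, H4f16, Brat1, Gm40369, Cwc22 and Taco1. At Lars2, a mitochondrial leucyl-tRNA synthetase gene that is mutated in a human syndrome of hearing loss (chr9:123461738-123462244), the Sox4 peak ranked 4, 11 and 20 in replicates 1 to 3, with enrichments of 19.6, 12.5 and 8.70. The knockout ATAC peak there ranked 4945 and 12665 and its nearest wildtype ATAC peak lay 8664 bp away. Beside 4930467E23Rik the Sox4 ranks were 139, 243 and 460. At H4f16 they were 18963, 2271 and 92, so 1 replicate was close to the limit. At Brat1 a window stood in replicates 1 and 2, of ranks 84 and 224, and beside Gm40369 in replicates 2 and 3, of ranks 1126 and 183. At Cwc22 replicates 2 and 3 had ranks of 337 and 18775 and at Taco1 of 8778 and 2676. At the Hjurp start only replicate 1 had a window, of rank 356. The Sox4 libraries and the wildtype ATAC lists come from wildtype cells of the same stage. The Sox4 cells were sorted progenitors, whereas the ATAC tissue was unsorted. Sox4 peaks were thus listed at these 7 places in wildtype progenitors while no wildtype ATAC peak was. Of these, H4f16 and Cwc22 were named above as uncertain, and 4930467E23Rik and Gm40369 stood in long stretches without wildtype peaks. Whether reads with several matches affect the peaks at Lars2, Brat1 and Taco1 was not tested either. Among the first 1000 peak numbers, 47, 46 and 57 had no row in Sox4 replicates 1 to 3. Absence from the wildtype lists is not the same as closed chromatin here either.

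Regions near listed genes made up a small part of the set, and some of the lists were drawn up with its strong regions known. Of 412 genes in 21 lists, 406 could be placed on autosomes, and 15 regions had one of them, 14 genes in all, as nearest coding gene within 100 kb. This was 0.661% of the 2268 regions near listed genes, beside the 0.579% over all 76102 regions, and 1.16% of those of them open in both knockout libraries, beside 0.998%. The 15 include the regions of the centromere (1), primary cilium (2), mitochondrial (2) and DNA damage (2) lists. Those 4 lists were drawn up with the strong regions known, so the shares cannot be read against the background. The 15 became 39 without wildtype replicate 1, 29 without knockout replicate 1 and 41 without knockout replicate 2. No region lay near a gene of 10 lists, which had only 31 (SoxC family) to 272 (Wnt) regions each, so that a count of 0 is close to the share of 0.579% over all regions. The 10 were the SoxC family, epithelium, medial floor, otic mesenchyme, spiral ganglion neurons, Wnt, Fgf, BMP with TGF-beta, glia with melanocytes, and blood with endothelium and macrophages.

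The Notch list had 3 regions of 188, 2 at Lfng and 1 near Mfng, another fringe gene (chr15:78744183-78744692, ranks 26847 and 44398). The prosensory and the supporting cell lists held the same 2 Lfng regions. The hair cell list had 1 region, inside Myo7a, a myosin of the hair bundle (chr7:98103203-98103714), with ranks of 40563 and 43076, enrichments of 7.56 and 6.96 and a wildtype peak 765 bp away. The roof and lateral wall list had 1, which lay 93140 bp from Lmx1a, a nonsensory homeobox gene (chr1:167941882-167942383, ranks 40789 and 43211). The regions at Mfng, Myo7a and Lmx1a were among the 276 with a weaker rank above 40000.

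The cell cycle list had regions inside 2 pocket protein genes that restrain entry into S phase. The one in Rbl1 (chr2:157170066-157170575) ranked 15147 and 19036 with enrichments of 19.9 and 18.8, and the one in Rb1 (chr14:73280908-73281421) ranked 37852 and 44215 with 10.4 and 8.02. The centromere list held Hjurp alone, the primary cilium list Bbs2 and Cdk20, the mitochondrial list Taco1 and Lars2 and the DNA damage list Brat1 and Crebzf, and these lists were drawn up with the strong regions known, so their counts (1 to 2 each) support nothing. A list of Pax2 and its neighbours on chromosome 19, drawn up because a Pax2cre strain is named in the series, had 1 region, 5778 bp from Wnt8b, a Wnt ligand gene that the Wnt list did not hold (chr19:44487188-44487693, ranks 29667 and 44882, enrichments 17.5 and 9.63).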

How the data were processed

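ATAC-seq libraries of E13.5 cochlea (2 SoxC double knockout, 3 wildtype) and 3 Sox4 CUT&RUN replicates were used as the peak lists the authors deposited. Groups came from titles and genotype labels. The submitters' processing notes name UMI-tools for the Sox4 libraries, and MACS2, STAR and deepTools for most libraries, with builds mm10 and GRCm38. The deposited lists give the fold enrichment of a peak over its local background as a ratio, its significance as a −log10 p-value, and its summit offset in bp. Read depth is unknown, so precision is given only for counting error, as exact binomial intervals at 95%. For a count of 0 among regions the text gives a limit of 3 counts of the total.

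From these files, overlapping peaks on chromosomes 1 to 19 were merged per list with the strongest summit kept, ranked by −log10 p, and cut to 50000 (ATAC) or 20000 (Sox4) windows of 501 bp centred on the summit (Python 3.11.15, pandas 2.3.3, scipy 1.17.1). Overlap meant 1 bp. Genes were 20665 autosomal coding genes of the RefSeq table of GRCm38.p6, without strand, so either gene end within 1 kb counted. Gene starts and strands came from the RefSeq promoter table. The code was tested on simulated lists. Nothing was tested across samples, since the peak lists hold no value for a region without a peak.

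Regions were named by rule: the 10 strongest, the extremes of enrichment outside these 10, the widest, clusters of 3 or more, Sox4 windows in at least 2 replicates, up to 4 per gene list, the 8 strongest at gene ends, and those nearest to the rank limit or to a wildtype peak. Arhgap40, Metrn, Depdc5, Tspan18, Katnal1 and other genes with 2 regions were named after their values were seen. Some regions that meet these criteria are not reported here. The members, lists and rules were chosen with earlier results of these data known. The alternatives were other rank limits, list lengths, distances and left-out libraries. The single-cell tables were not used here.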

Additional observations from a re-analysis of the deposited data

Results flagged for a closer look

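Chromosomes X and Y lie outside the regions above. They had peaks in the knockout lists alone, with 6164 rows in knockout replicate 1 and 5584 in knockout replicate 2, against 0 in each of the 3 wildtype lists, and regions on X and Y are not described here.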

How the results depend on the processing

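Of 99 values under alternatives, 60 stayed near the reported ones, within 1.5 times for a count, within the exact interval for a share and within the SD of the 2 knockout medians for a median. The rank limit moved all 7 results. With 25000 peaks per library there were 39 regions, 38.5% at gene ends, 6 clustered, 9 near listed genes, a median enrichment of 16.1, a median width of 706 bp and 17.9% with Sox4 windows. With 100000 peaks these were 6066, 7.27%, 2551, 173, 4.87, 283 bp and 0.181%. Ranking by enrichment gave 6.05% at gene ends and 51 clustered. Leaving out 1 ATAC library gave 574 (without wildtype replicate 3) to 1568 (without wildtype replicate 1) regions, 39 to 297 clustered, 17 to 41 near listed genes, 8.14% to 11.3% at gene ends, a median enrichment of 9.05 to 11.5, a median width of 396 to 447 bp and 0.638% to 1.22% with Sox4 windows. The gene-end share was 6.8% at 500 bp, 17.9% at 2000 bp and 16.6% with all genes of the table. Clustered regions numbered 8 at a gap of 10000 bp and 56 at 100000 bp. The higher of the 2 knockout values gave medians of 12.1 and 509 bp. After seeing the data the set was split at rank 20000, which gave 48.4% and 22.6% (gene ends, Sox4) up to it and 7.32% and 0 beyond it. Full peak extents, wildtype lists of equal length and a required distance of 500 or 1000 bp from wildtype peaks moved none of the 7 results by these measures. The causes were not tested. No paired analysis was possible because the results are counts over regions and the peak lists hold no value per sample for a region without a peak.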
